A study of Homo sapiens with 9 samples.

Results

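The genes followed here were 34 listed genes of homologous recombination, of the Fanconi anemia pathway and of the DNA damage checkpoint in OVCAR3 cells, a cell line from a high-grade ovarian carcinoma. They were listed by name for their relevance to ovarian cancer, and although no count enters the rule, the list was drawn up with earlier results of these data known. All 34 were found among the 60660 genes of the count matrix. Each of the 34 also passed the filter on low counts, which left 17794 genes for testing.

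Homologous recombination repairs a DNA double-strand break by copying the intact sister chromatid. The broken ends are first cut back to single strands, a recombinase filament is then loaded by BRCA1, PALB2, BRCA2 and the recombinase paralogs, and the filament invades the sister. Fanconi proteins recognise crosslinks between the DNA strands and hand them to the same machinery, while ATM, ATR and their effector kinases stop the cell cycle until repair is done. Loss of *BRCA1* or *BRCA2* function is a well-known lesion of high-grade serous ovarian cancer and underlies the use of PARP inhibitors.

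The study asked what *CTCFL* (BORIS), a testis-specific paralog of the chromatin protein CTCF that many ovarian tumors express, does to the transcriptome of OVCAR3 cells. RNA-seq was available from 9 libraries, with 3 biological replicates of each of 3 groups and 3 technical replicates pooled in each biological one. CTCFL-OE cells were transiently transfected with 2 µg of a plasmid carrying the *CTCFL* coding sequence (pCpGfree-vitroHBORIS) and harvested 48 h later, and Control cells received the LacZ plasmid of the same backbone by the study's methods. CTCFL-KD cells had *CTCFL* reduced by siRNAs, and by the methods their RNA came from knockdown experiments done earlier. The labels give the Control cells no *CTCFL* treatment, and the same Control libraries served both comparisons, so the knockdown and the earlier experiment cannot be told apart in any CTCFL-KD value below.

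*CTCFL* itself had 6, 9 and 10 counts in the Control libraries. The counts were 36, 34 and 72 with overexpression and 0, 1 and 0 with knockdown, so it moved with the labels in both conditions (adjusted p = 0.0287 and 0.0162, edgeR quasi-likelihood test). Libraries held 14332622 to 24490080 counts. Mitochondrially encoded genes took 6.16 to 6.52% of the counts in Control, 7.40 to 14.9% in CTCFL-OE and 7.80 to 11.8% in CTCFL-KD, and the part of this in the results was not tested. Ovarian carcinoma markers were present in every library. Their summed level was 4717 to 5494 CPM (counts scaled to library size) in Control and CTCFL-OE and 9216 to 15127 CPM in CTCFL-KD. In CTCFL-KD 7 of 11 tested markers were higher and 2 lower, beside 21.4% and 16.8% of all genes tested. Of 14 markers of connective tissue, vessel and blood cells, 5 passed the filter, and their list summed to 34.03 to 52.7 CPM over the 9 libraries with 2 to 6 markers at 0 in each. Of these 5, 1 was higher in CTCFL-OE (*VWF*), beside 1.99% of all genes. In CTCFL-KD 2 were higher (*COL1A2* and *CD14*) and 1 lower (*PECAM1*), beside 21.4% and 16.8% of all genes. *COL1A2*, a collagen of connective tissue, stood at 0 in the 3 Control libraries, at most at 2 counts in CTCFL-OE and at 156, 239 and 247 counts in CTCFL-KD, while the blood cell marker *MS4A1* was at 0 everywhere. The part of *COL1A2* in the results was not tested.

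Levels are given below as CPM scaled by the trimmed mean of M values (TMM), and to compare genes they were divided by the length of each gene's canonical transcript. In Control, *NBN* was the most abundant of the 34 per kilobase with 23.8 CPM per kb, followed by *RBBP8* with 20.8, *ATR* with 18.2, *CHEK2* with 17.5 and *RAD51AP1* with 16.9 CPM per kb. *BRCA1* lay in the middle of the order with 6.65 CPM per kb and *BRCA2* near its foot with 1.64 CPM per kb. *RAD50* was lowest with 0.447 CPM per kb. GENCODE places another protein-coding gene on the same strand over 76.9% of the exonic bases of *RAD50*, and the 9 libraries together gave *RAD50* 634 counts and that gene 0. Exonic bases are likewise shared by *RAD54B* with *FSBP* on the same strand (66.0%), by *XRCC3* with *KLC1* on the opposite strand (76.7%), by *TP53BP1* with *TUBGCP4* (28.8%), by *RAD54L* with *LRRC41* on the opposite strand (19.9%) and by *FANCA* with *ZNF276* on the opposite strand (19.6%), so the counts of these 6 members are uncertain.

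**Figure D1:**
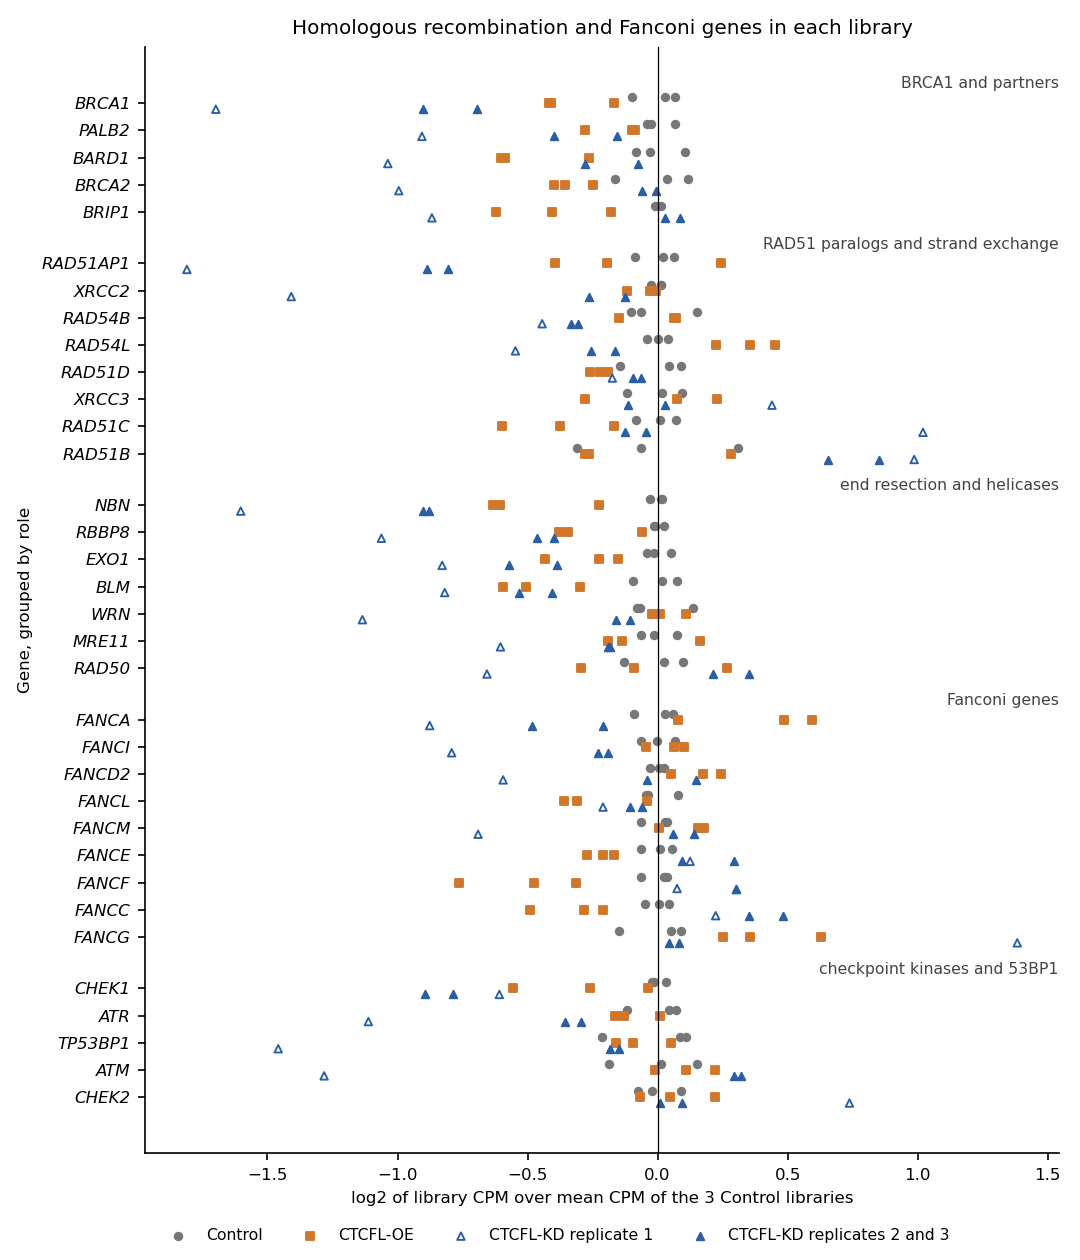
Level of each of the 34 genes in each library, as the log2 of its CPM over the mean CPM of the 3 Control libraries, with genes grouped by role. Circles are Control, squares CTCFL-OE and triangles CTCFL-KD, with CTCFL-KD replicate 1 open. CTCFL-KD replicate 1 was the lowest of the 3 CTCFL-KD libraries for 27 of the 34 genes.

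The first comparison asked how these genes stood when *CTCFL* was reduced. In CTCFL-KD vs Control, 7 of the 34 genes were lower and 1 was higher at an adjusted p under 0.05. *RAD51AP1*, *NBN* and *BRCA1* fell the most, by the fit 2.13-fold, 2.13-fold and 2.04-fold lower than Control, followed by *CHEK1*, *RBBP8*, *EXO1* and *BLM*, and *RAD51B* rose. Over all 17794 genes, 16.8% were lower and 21.4% were higher by the same test, beside 20.6% and 2.94% of the 34. The 3 largest falls also passed the fold change threshold of the study, a log2 fold change under -1, which 7.94% of all genes did. The median log2 fold change of the 34 genes was -0.31, beside 0.08 over all genes tested. The 3 CTCFL-KD libraries lay entirely below the 3 Control libraries for 17 of the 34 genes and entirely above for 4, beside 27.6% and 28.7% of all genes.

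Of the 5 genes of BRCA1 and its partners, *BRCA1* alone passed the test, beside 16.8% of all genes lower and 21.4% higher. *BRCA1*, the ubiquitin ligase that promotes resection and the loading of the recombinase, lies at chr17:43044295-43170245 (GRCh38, minus strand, ENSG00000012048.23). It stood at 44.1, 49.3 and 48.01 CPM in the 3 Control libraries and at 14.5, 29.1 and 25.3 CPM in CTCFL-KD replicates 1 to 3. Its highest CTCFL-KD library was thus well below its lowest Control library, and the log2 fold change was -1.03 ± 0.23 (adjusted p = 0.0059). *PALB2*, which bridges BRCA1 and BRCA2, stood at 15.4, 15.3 and 16.5 CPM in Control and 8.39, 14.1 and 11.9 CPM in CTCFL-KD. Those groups did not overlap either, but the difference did not pass (log2 fold change -0.45 ± 0.20, adjusted p = 0.0959). *BRCA2*, the mediator that delivers the recombinase to single-stranded DNA, stood at 17.5, 20.1 and 21.2 CPM in Control and 9.83, 18.8 and 19.5 CPM in CTCFL-KD, where replicates 2 and 3 lay within the Control range (log2 fold change -0.28 ± 0.24, adjusted p = 0.371). *BARD1*, the obligate partner of BRCA1, and *BRIP1*, its helicase, had log2 fold changes of -0.40 and -0.19 and did not pass.

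Among the 8 genes of the recombinase paralogs and of strand exchange, 1 rose and 1 fell, beside 21.4% and 16.8% of all genes. *RAD51AP1*, which stimulates strand invasion, was the gene with the largest fall of the 34 (chr12:4538798-4560047, plus strand, ENSG00000111247.15). It stood at 37.4, 36.2 and 33.6 CPM in Control and at 10.2, 20.5 and 19.3 CPM in CTCFL-KD (log2 fold change -1.09 ± 0.26, adjusted p = 0.00772). *RAD51B*, a paralog of the recombinase that helps to build its filament, moved the other way, from 2.60, 4.002 and 3.09 CPM in Control to 6.40, 5.83 and 5.09 CPM in CTCFL-KD, with every CTCFL-KD library above every Control library (log2 fold change 0.83 ± 0.24, adjusted p = 0.0206). *RAD51B* (chr14:67819779-68730218, plus strand, ENSG00000182185.18) is also among the genes with the fewest reads, with 52, 103 and 61 counts in Control and 71, 98 and 93 in CTCFL-KD. The paralog *RAD51C* stood at 46.1, 22.1 and 20.8 CPM in CTCFL-KD against 22.8, 23.9 and 21.5 CPM in Control, with replicate 1 the only CTCFL-KD library above Control, and its log2 fold change of 0.38 ± 0.28 did not pass. *RAD51D*, *XRCC2*, *XRCC3*, *RAD54L* and *RAD54B* had log2 fold changes from -0.49 (*XRCC2*) to 0.13 (*XRCC3*) and did not pass.

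Of the 7 genes of end resection and the helicases, 4 fell, beside 16.8% of all genes. *NBN*, the NBS1 subunit that recruits the MRE11 nuclease and ATM to a break, stood at 108, 111 and 111 CPM in Control and at 36.3, 59.8 and 58.9 CPM in CTCFL-KD (log2 fold change -1.09 ± 0.22, adjusted p = 0.00285). Its partners in the complex did not pass. *MRE11*, the nuclease, had a log2 fold change of -0.31 ± 0.18 (adjusted p = 0.191) and *RAD50* one of 0.05 ± 0.27 (adjusted p = 0.89). *RBBP8*, which encodes CtIP, the partner that starts resection, went from 67.5, 69.3 and 67.8 CPM in Control to 32.6, 51.7 and 49.5 CPM in CTCFL-KD (log2 fold change -0.61 ± 0.20, adjusted p = 0.0314). *EXO1*, the exonuclease of long-range resection, went from 31.6, 33.1 and 30.9 CPM to 17.9, 24.4 and 21.5 CPM (log2 fold change -0.58 ± 0.17, adjusted p = 0.0195). *BLM*, the helicase that unwinds ends and dissolves joint molecules, went from 22.04, 24.8 and 23.8 CPM to 13.3, 17.8 and 16.3 CPM (log2 fold change -0.57 ± 0.17, adjusted p = 0.0219). *NBN* lies at chr8:89924515-90003228, minus strand, ENSG00000104320.14, *RBBP8* at chr18:22798261-23026488, plus strand, ENSG00000101773.19, *EXO1* at chr1:241847967-241895148, plus strand, ENSG00000174371.17 and *BLM* at chr15:90717346-90816166, plus strand, ENSG00000197299.12. For each of these 4 genes the CTCFL-KD libraries lay below the Control libraries, and replicate 1 was the lowest. The related helicase *WRN* had a log2 fold change of -0.39 ± 0.24 and did not pass (adjusted p = 0.22).

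None of the 9 Fanconi genes passed in CTCFL-KD, beside 16.8% of all genes lower and 21.4% higher. Their lowest adjusted p was 0.082 (edgeR quasi-likelihood test). An unadjusted p under 0.05 was found for 2 of them, beside 8591 of the 17794 genes tested. Of the 21 alternatives, *FANCA* passed in 3, *FANCF* in 2 and *FANCC* in 1. *FANCA* stood at a log2 fold change of -0.65 without CTCFL-KD replicate 2 (adjusted p = 0.0498). *FANCD2* and *FANCI* form the clamp that is ubiquitinated at a crosslink. *FANCD2* stood at 46.3, 47.99 and 47.5 CPM in Control and 31.3, 52.4 and 45.95 CPM in CTCFL-KD (log2 fold change -0.13 ± 0.20, adjusted p = 0.633), with the CTCFL-KD libraries on both sides of Control. *FANCI* stood at 55.1, 60.3 and 57.5 CPM in Control and 33.3, 50.5 and 49.1 CPM in CTCFL-KD (log2 fold change -0.38 ± 0.18, adjusted p = 0.127), with all CTCFL-KD libraries below Control. Of the core complex that ubiquitinates them, *FANCA* had a log2 fold change of -0.49 and the ligase *FANCL* one of -0.12, while *FANCC*, *FANCE*, *FANCF* and *FANCG* had values of 0.36, 0.17, 0.23 and 0.62. The value of *FANCG* rested on replicate 1, at 11.7 CPM beside 4.64 and 4.77 CPM in replicates 2 and 3, and was 0.07 without that library. The 3 CTCFL-KD libraries lay above the Control libraries for *FANCC*, *FANCE* and *FANCF*, and below them for *FANCA*, *FANCI* and *FANCL*. Over all genes 28.7% lay above and 27.6% below. *FANCM*, the translocase that anchors the complex to DNA, had a log2 fold change of -0.11.

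Of the 5 genes of the checkpoint kinases and TP53BP1, *CHEK1* alone passed and it fell, beside 16.8% of all genes lower and 21.4% higher. *CHEK1*, the effector kinase of ATR that holds cells in S and G2 phase, stood at 33.4, 33.5 and 34.6 CPM in Control and at 22.2, 18.2 and 19.6 CPM in CTCFL-KD (log2 fold change -0.76 ± 0.18, adjusted p = 0.00644). The gene lies at chr11:125625163-125676255, plus strand, ENSG00000149554.13. It was the one fallen gene in which replicate 1 was not the lowest CTCFL-KD library. *ATR*, its upstream kinase, stood at 136, 153 and 155 CPM in Control and 68.5, 121 and 116 CPM in CTCFL-KD, with no overlap. The difference in *ATR* did not pass (log2 fold change -0.54 ± 0.22, adjusted p = 0.0696), but it did with the replicate number as a block (log2 fold change -0.57, adjusted p = 0.047). With length and GC trends removed it was -0.28 and did not pass, either without the block (adjusted p = 0.0788) or with it (adjusted p = 0.0973). *ATM*, the kinase activated by double-strand breaks, stood at 29.7, 34.1 and 37.5 CPM in Control and 13.9, 41.4 and 42.2 CPM in CTCFL-KD, low in replicate 1 and above Control in the others (log2 fold change -0.05 ± 0.33, adjusted p = 0.918). *CHEK2*, the effector of ATM, stood at 30.7, 31.9 and 34.4 CPM in Control and 53.9, 32.5 and 34.5 CPM in CTCFL-KD, high in replicate 1 (log2 fold change 0.32 ± 0.21, adjusted p = 0.253). *TP53BP1*, which shields ends from resection, had a log2 fold change of -0.48 ± 0.29 (adjusted p = 0.214). Its level was 31.5 CPM in replicate 1 and 78.1 and 76.1 CPM in replicates 2 and 3, and without replicate 1 the log2 fold change was -0.16. With length and GC trends removed *TP53BP1* passed, at -0.55 without the block (adjusted p = 0.00974) and at -0.56 with it (adjusted p = 0.00598).

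**Figure D2:**
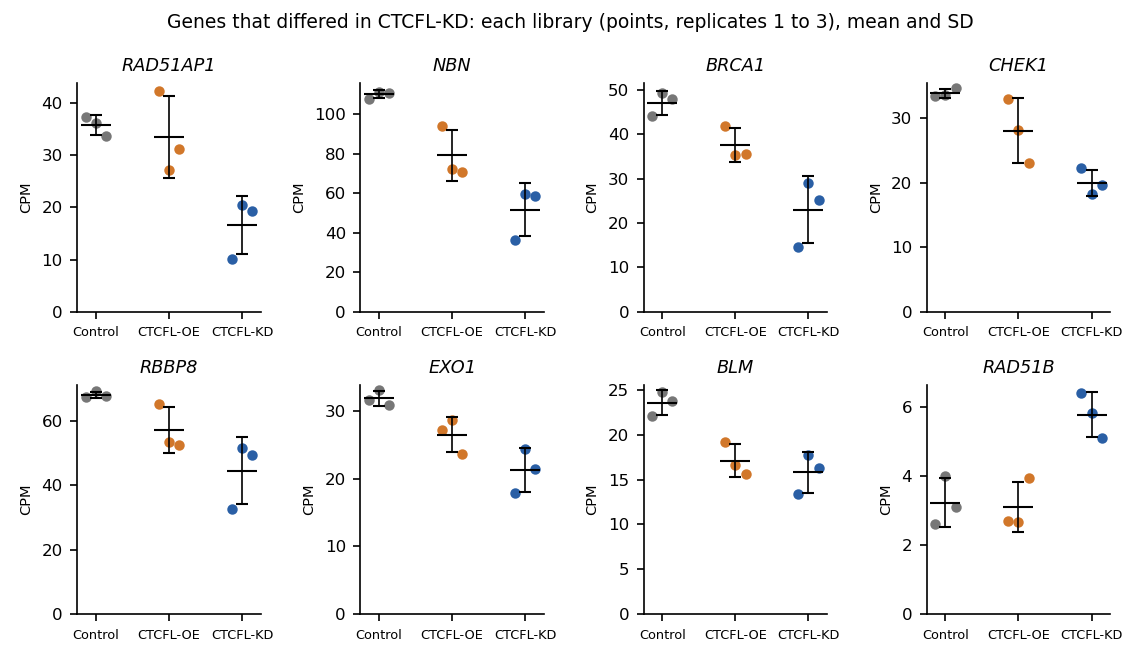
Level in CPM of the 8 genes that passed in CTCFL-KD vs Control, on axes that start at 0. Points are libraries in the order of replicates 1 to 3, and black marks are the mean and SD of the 3 libraries of a group. All CTCFL-KD libraries lie below all Control libraries for 7 of the genes and above them for *RAD51B*.

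The calls in CTCFL-KD rested on different numbers of alternatives. *RAD51AP1*, *NBN* and *BRCA1* passed in all 21 alternative analyses, with log2 fold changes from -1.25 to -0.68, from -1.20 to -0.66 and from -1.22 to -0.79. Leaving out any 1 of the Control libraries left 4 lower genes, *RAD51AP1*, *NBN*, *BRCA1* and *CHEK1*, since *RBBP8*, *EXO1* and *BLM* then missed the threshold with log2 fold changes of -0.63 to -0.61, -0.61 to -0.57 and -0.63 to -0.55. The 4 lower genes are 11.8% of the 34 genes, beside 10.8 to 11.5% of all genes, and 0 or 1 gene was higher, beside 15 to 15.3% of all. The call of *RAD51B* was lost without Control replicate 1 and without Control replicate 3, where its adjusted p reached 0.0994.

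Promoter sequence is shown for 3 of the fallen genes with the smallest p, because these genes carry the largest differences. RefSeq starts (GRCh38.p14) were matched for 30 of the 34 genes, not for *WRN*, *FANCI*, *RAD54B* and *NBN*. Each stretch is the longest run within the 250 bases before the RefSeq start that GENCODE does not annotate as untranslated region of any transcript. *EXO1* had no such run of 50 bases. Capitals mark CCAAT on either strand (ATTGG on the minus strand), the box bound by the factor NF-Y and common in promoters of cell cycle genes. The stretches are chr17:43125484-43125614 on the minus strand for *BRCA1*, chr11:125626035-125626223 on the plus strand for *CHEK1* and chr12:4538640-4538797 on the plus strand for *RAD51AP1*.
BRCA1: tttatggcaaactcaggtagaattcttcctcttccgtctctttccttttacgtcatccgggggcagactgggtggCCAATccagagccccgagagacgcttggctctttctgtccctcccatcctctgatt
CHEK1: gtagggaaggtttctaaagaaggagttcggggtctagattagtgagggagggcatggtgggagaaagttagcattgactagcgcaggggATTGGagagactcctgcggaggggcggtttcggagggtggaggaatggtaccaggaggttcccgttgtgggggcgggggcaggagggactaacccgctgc
RAD51AP1: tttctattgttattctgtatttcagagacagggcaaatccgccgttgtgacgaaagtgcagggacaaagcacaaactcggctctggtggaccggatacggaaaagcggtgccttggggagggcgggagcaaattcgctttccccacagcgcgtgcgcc
The CCAAT of *BRCA1* starts 175 bases before the start and the ATTGG of *CHEK1* 100 bases before it. That of *RAD51AP1* starts 70 bases before the start, outside the stretch shown. Over the full window, from 250 bases before to 50 bases after the start, CCAAT on either strand was found in 15 of 30 matched genes (50%), in 4 of the 6 matched genes that fell and in 36.3% of 11073 promoters. An E2F-like site (TTTCCCGC, TTTCGCGC, TTTGCCGC or TTTGGCGC) was found in 5 of the 30 (16.7%), in 1 of the 6 that fell, *EXO1*, and in 5.38% of all. The letters TTTGAA of the cell cycle homology region were found in 3 of the 30 (10%), in 0 of the 6 and in 9.21% of all. A CTCF-type core (AGGGGGC or AGGTGGC) was found in 10 of the 30 (33.3%), in 2 of the 6, *RAD51AP1* and *BLM*, and in 26.6% of all. These are matches of letters and no measure of binding.

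The CTCFL-KD libraries did not behave alike. CTCFL-KD replicate 1 had a TMM factor of 0.775, beside 0.945 to 1.09 in the other libraries, and the summed level of the 34 genes was 675 CPM in it, beside 963 and 925 CPM in replicates 2 and 3 and 1089 to 1154 CPM in Control. The median log2 of the 34 genes to the Control mean was -0.74 in replicate 1 and -0.10 and -0.16 in replicates 2 and 3. In CTCFL-OE replicates 1 to 3 it was -0.11, -0.15 and -0.22. The median over all genes was 0.056, 0.013 and -0.0029 in CTCFL-KD and -0.0214, -0.0215 and -0.0331 in CTCFL-OE. In CTCFL-KD replicate 1 the log2 of a gene to the Control mean fell with transcript length. Its Spearman correlation with length was -0.544 across the 34 genes, beside -0.407 across 13505 genes. Across the 34 genes this correlation was -0.0017 in CTCFL-KD replicate 2 and 0.013 in CTCFL-KD replicate 3. Genes of one library are not independent, and these correlations are a description. The 34 genes are long, with a median transcript of 4678 bases against 2762 over the tested genes, and 26 of them are longer than that.

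**Figure D3:**
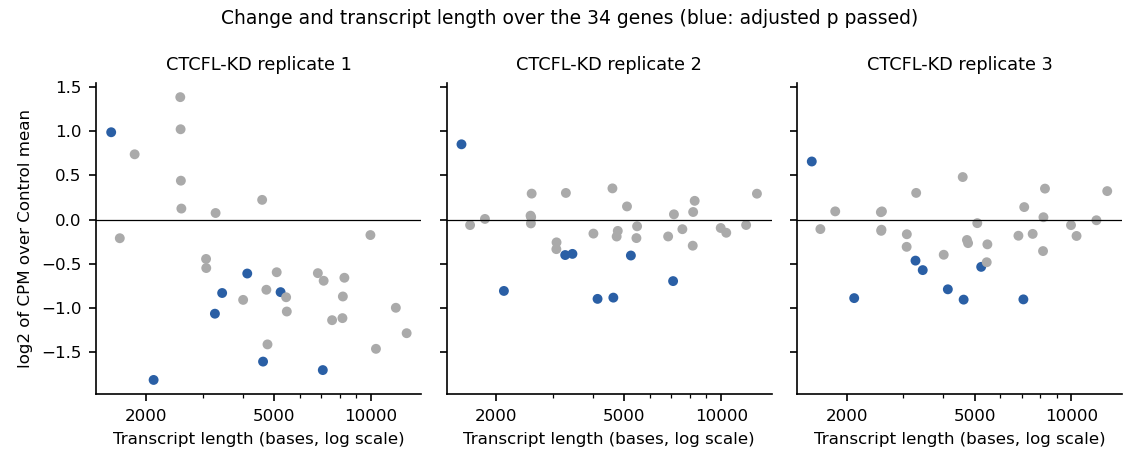
The log2 of CPM over the Control mean (vertical axis) against transcript length in bases (horizontal log axis) for the 34 genes, in each CTCFL-KD library. Blue points passed in CTCFL-KD vs Control. In replicate 1 long genes lie lower (Spearman -0.544), and replicates 2 and 3 show no such trend (-0.0017 and 0.013).

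Without CTCFL-KD replicate 1 the median log2 fold change of the 34 genes moved to -0.15, beside 0.01 over all genes, and 8 genes were lower and 2 higher, beside 23.7% and 26.2% of all. The 7 lower genes remained, with *BRCA1* at -0.79, *NBN* at -0.89 and *RAD51AP1* at -0.84, so that none of the 3 was beyond -1. *ATR* joined them at -0.32 (adjusted p = 0.0387), and *FANCC* joined *RAD51B* at 0.42 (adjusted p = 0.015). Without replicate 1, values of genes that had not passed moved toward 0, to -0.17 for *BARD1*, -0.19 for *XRCC2*, -0.13 for *WRN*, -0.03 for *BRCA2*, -0.27 for *PALB2*, -0.21 for *FANCI*, -0.18 for *MRE11* and 0.06 for *CHEK2*, and 6 genes changed sign. *RAD51C* and *XRCC3* turned to -0.08 and -0.04, *BRIP1*, *FANCD2* and *FANCM* to 0.06, 0.06 and 0.10, and *ATM*, which moved away from 0, to 0.31 (adjusted p = 0.0589). *RAD50* (0.29, adjusted p = 0.25), *FANCF* (0.31) and *FANCE* (0.20) also moved away from 0. With each library's trend over transcript length and GC content removed, the median was -0.06, beside 0.04 over all genes, and 8 genes were again lower (23.5%) and 2 higher (5.88%), beside 20.6% and 24.2% of all genes. *RAD54B* and *MRE11*, whose CTCFL-KD libraries all lay below Control at log2 fold changes of -0.36 and -0.31, then turned to 0.03 and 0.06. There *CHEK1* (log2 fold change -0.46, adjusted p = 0.0679) and *BLM* (-0.29, adjusted p = 0.0892) no longer passed, while *FANCA* (-0.61), *TP53BP1* (-0.55) and *RAD54L* (-0.40) did on the lower side and *FANCF* (0.40) on the higher side. With the replicate block added to that fit, *CHEK1* passed (-0.48, adjusted p = 0.0391) and *RBBP8* did not (-0.34, adjusted p = 0.0588), while *BLM* still missed the threshold (adjusted p = 0.107).

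The second comparison asked how the 34 genes stood when *CTCFL* was raised. None of them passed in CTCFL-OE vs Control at an adjusted p under 0.1 by edgeR or by DESeq2 on all 9 libraries, and 3 had an unadjusted p under 0.05 by edgeR. Among all genes edgeR called 1.99% higher and 1.16% lower, and DESeq2 on all libraries 4.85% and 2.8%. An unadjusted p under 0.05 by edgeR was found for 3157 of the 17794 genes tested. The log2 fold changes ran from -0.50 (*FANCF*) to 0.42 (*FANCG*), with a median of -0.09 beside -0.01 over all genes. The CTCFL-OE libraries lay entirely below Control for 15 of the 34 genes (44.1%) and entirely above for 4 (11.8%), beside 20.8% and 16.3% of all genes. All 5 of BRCA1 and its partners were among the 15, with log2 fold changes from -0.47 (*BARD1*) to -0.15 (*PALB2*).

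*FANCF*, the adaptor of the core complex, had the lowest p in CTCFL-OE. It stood at 13.3, 12.4 and 13.2 CPM in Control and 10.4, 9.30 and 7.62 CPM in CTCFL-OE, with no overlap (log2 fold change -0.50 ± 0.17, adjusted p = 0.173). *BLM* stood at 19.2, 16.6 and 15.6 CPM in CTCFL-OE (log2 fold change -0.46 ± 0.17, adjusted p = 0.198) and *NBN* at 94.3, 72.3 and 71.04 CPM (log2 fold change -0.47 ± 0.21, adjusted p = 0.278), each below its Control libraries given above. *BRCA1* stood at 42.00, 35.3 and 35.5 CPM (log2 fold change -0.33 ± 0.23, adjusted p = 0.482) and *BRCA2* at 16.5, 15.3 and 14.9 CPM (log2 fold change -0.33 ± 0.24, adjusted p = 0.485). Higher in each CTCFL-OE library than in any Control library were *FANCA*, *FANCG*, *FANCD2* and *RAD54L*. *FANCA*, a core complex subunit, stood at 23.4, 23.98 and 21.6 CPM in Control and 24.3, 32.2 and 34.7 CPM in CTCFL-OE (log2 fold change 0.40 ± 0.20, adjusted p = 0.331). *RAD54L*, the motor protein that drives strand exchange, stood at 15.8, 15.4 and 14.99 CPM and 18.02, 21.1 and 19.7 CPM (log2 fold change 0.35 ± 0.16, adjusted p = 0.297). *FANCD2* stood at 55.9, 53.3 and 48.98 CPM in CTCFL-OE and *FANCI* at 60.2, 61.9 and 55.9 CPM, with log2 fold changes of 0.16 and 0.04. For the kinases *ATM*, *ATR*, *CHEK1* and *CHEK2* they were 0.11, -0.09, -0.27 and 0.07.

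The count of 0 in CTCFL-OE depended on CTCFL-KD replicate 1, which enters the shared estimate of the spread. Without it 9 of the 34 genes passed on the lower side and 3 on the higher, beside 13.4% and 14% of all genes: *BARD1*, *BLM*, *BRCA1*, *BRCA2*, *BRIP1*, *FANCC*, *FANCF*, *NBN* and *RAD51C* lower, and *FANCA*, *FANCG* and *RAD54L* higher. With Control and CTCFL-OE alone in the fit, edgeR called 4 lower (11.8%) and 2 higher (5.88%), beside 7.96% and 12.2% of all genes, and DESeq2 5 lower (14.7%) and 2 higher, beside 10% and 12%. Without CTCFL-OE replicate 1, *BLM* and *FANCF* passed on the lower side (5.88%), beside 5.42% of all genes. Leaving out any 1 of the other 7 libraries gave 0.

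**Figure D4:**
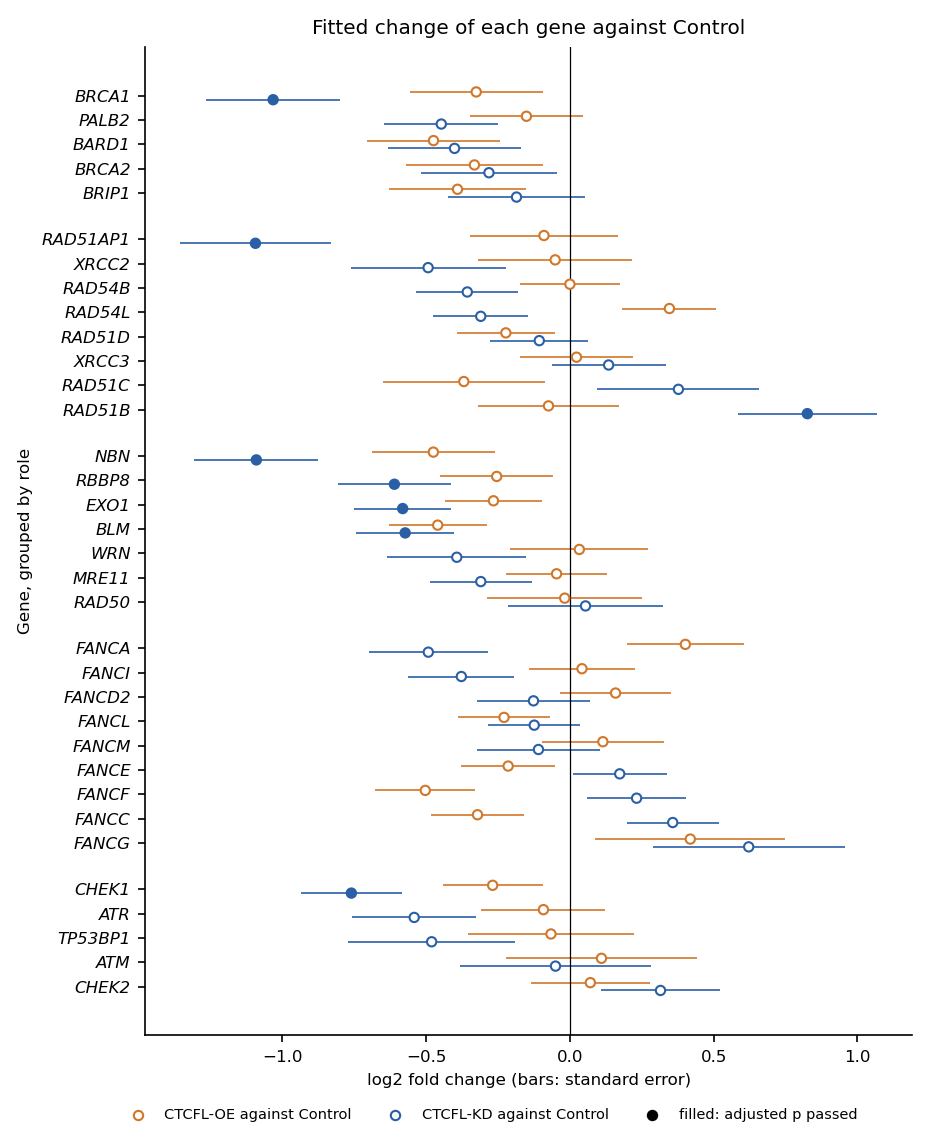
Fitted log2 fold change against Control (horizontal axis) of each of the 34 genes, grouped by role, in CTCFL-OE (orange) and CTCFL-KD (blue), with bars for the standard error and filled points for a passed adjusted p. No CTCFL-OE point passed, and 8 CTCFL-KD points did. Both comparisons share the Control libraries.

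The direct comparison of the treatments does not use the difference from Control. In CTCFL-KD vs CTCFL-OE, 4 of the 34 genes were lower (11.8%) and 3 higher (8.82%) at an adjusted p under 0.05, beside 11.5% and 15.3% of all genes. *RAD51AP1* was lower in CTCFL-KD, at 10.2, 20.5 and 19.3 CPM against 42.3, 27.2 and 31.2 CPM in CTCFL-OE (log2 fold change -1.003 ± 0.26, adjusted p = 0.0167). *FANCA* was lower too, at 12.5, 19.9 and 16.5 CPM against its CTCFL-OE values above (log2 fold change -0.89 ± 0.21, adjusted p = 0.00953), and so was *RAD54L*, at 10.6, 12.9 and 13.7 CPM (log2 fold change -0.66 ± 0.17, adjusted p = 0.0139). Neither of those 2 genes had passed against Control. *BRCA1* was lower by a log2 fold change of -0.71 ± 0.23 (adjusted p = 0.0454).

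Higher in CTCFL-KD than in CTCFL-OE were *RAD51B*, *FANCF* and *FANCC*. *RAD51B* stood at 2.69, 2.67 and 3.93 CPM in CTCFL-OE, all below its CTCFL-KD values (log2 fold change 0.90 ± 0.25, adjusted p = 0.0204). *FANCF* stood at 13.6, 15.9 and 15.9 CPM in CTCFL-KD (log2 fold change 0.73 ± 0.17, adjusted p = 0.0105). *FANCC*, another subunit of the core complex, stood at 14.8, 14.3 and 15.2 CPM in Control, 12.8, 12.1 and 10.5 CPM in CTCFL-OE and 17.2, 18.8 and 20.6 CPM in CTCFL-KD, with the Control libraries between the treatments (log2 fold change 0.68 ± 0.16, adjusted p = 0.0103). The same order held for *FANCF*. *NBN* (log2 fold change -0.62, adjusted p = 0.055) and *CHEK1* (-0.49, adjusted p = 0.0603) missed the threshold, and *RBBP8*, *EXO1* and *BLM* had values of -0.36, -0.32 and -0.11.

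Several of these calls were lost when a library was left out, and that of *FANCC* without the low-count filter (log2 fold change 0.61, adjusted p = 0.0653). With the 2 treatments alone in the fit, edgeR called 1 lower gene, *FANCA*, and 0 higher, with 9.67% of all genes higher and 5.87% lower. Of the 7 genes, *FANCA* passed in all 21 alternatives. *BRCA1* was lost without any 1 of the Control libraries, any 1 of the CTCFL-OE libraries or CTCFL-KD replicate 3, and its call lay near the threshold, since without a Control library the log2 fold change stayed at -0.71 and the adjusted p was 0.0699 to 0.0714. *RAD51AP1* and *RAD51B* were lost without CTCFL-OE replicate 1, *RAD51B* and *RAD54L* without CTCFL-OE replicate 2, and *RAD51B* without CTCFL-KD replicate 2. Without CTCFL-KD replicate 1, 6 genes were lower (17.6%) and 5 higher (14.7%), beside 18.7% and 21% of all genes. *NBN* and *CHEK1*, which had missed the threshold, each passed in 6 of the 21 alternatives, both of them with DESeq2 on all libraries, with upper-quartile scaling and without CTCFL-KD replicate 1.

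Other genes of the same pathways were read from fixed lists, beside the 16.8% of all genes that were lower and the 21.4% that were higher in CTCFL-KD vs Control. In CTCFL-OE none of 77 tested genes in 6 DNA repair lists passed, beside 1.99% of all genes higher and 1.16% lower. Without CTCFL-KD replicate 1 these shares of all genes were 14% and 13.4%, and the lists were not read in that fit. In CTCFL-KD, 5 of 16 genes of strand exchange and its mediators were lower and 1 was higher (median log2 fold change -0.23), led by *SFR1*, an accessory factor of the recombinase, at -1.91. Of 13 Fanconi partners 4 were lower and 1 was higher (median -0.07), among them *USP1*, the enzyme that removes ubiquitin from the FANCD2 clamp, at -1.20. Of 12 genes of resection, dissolution and resolution 3 were lower and 2 higher (median 0.04), with the helicase *RECQL* at -1.64. Break signalling and end protection had 3 lower of 13 (median -0.13), with *BRCC3*, a deubiquitinase in a BRCA1 complex, at -1.11. Checkpoint signalling had 5 lower of 11 (median -0.53), with the kinase *WEE1* at -1.02 and *CLSPN*, the adaptor through which ATR activates CHEK1, at -0.90. End joining and PARP genes had 1 lower, *XRCC4* at -0.98, and 1 higher, *PARP2* at 0.65, of 12 (median -0.16).

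Homologous recombination genes are expressed mostly in S and G2 phase, so proliferation genes were read beside them. Of 25 proliferation genes 14 were lower in CTCFL-KD and none was higher (median -0.74), led by the mitotic kinase *AURKA* at -1.26, *TOP2A* at -1.23 and *PLK1* at -1.23. Their summed level was 2079 to 2399 CPM in CTCFL-KD, 3423 to 3555 CPM in Control and 3261 to 3672 CPM in CTCFL-OE, with no overlap between CTCFL-KD and the others. None of the 25 passed in CTCFL-OE, beside 1.99% of all genes higher and 1.16% lower, or 14% and 13.4% without CTCFL-KD replicate 1. The 25 were not read in that last fit. The part of this difference in the falls of the 34 genes was not tested. In bulk RNA, fewer cells in a phase and less RNA per cell cannot be told apart.

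**Figure D5:**
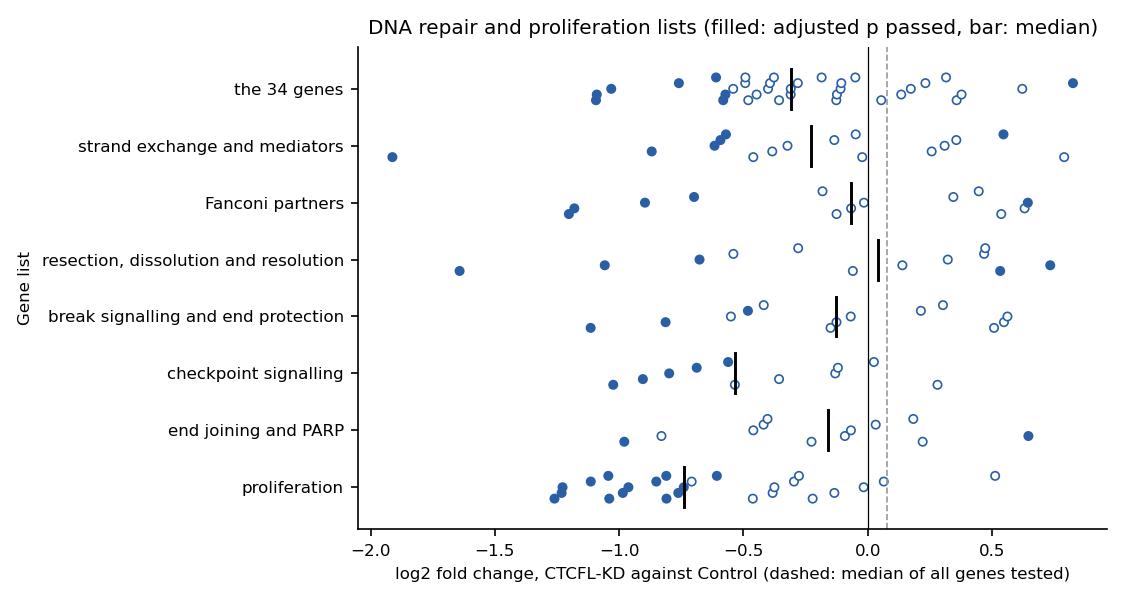
Fitted log2 fold change in CTCFL-KD vs Control (horizontal axis) of the 34 genes, of 6 lists of other DNA repair genes and of proliferation genes. Each point is a gene, filled where the adjusted p passed, black bars are list medians and the dashed line is the median of all genes tested (0.08). The proliferation list has the lowest median, -0.74, and the 34 genes lie at -0.31.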

How the data were processed

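Total RNA of 9 OVCAR3 libraries (Control, CTCFL-OE and CTCFL-KD, 3 biological replicates each) had been sequenced from stranded mRNA libraries. The authors trimmed the reads with Trimmomatic, aligned them to GRCh38 and counted them per gene with featureCounts. The paper's methods name STAR for the alignment and the submitters' processing notes kallisto. The deposited values are raw counts per gene, whole numbers without normalization, and the 9 files of single libraries were identical to the columns of the matrix. Which annotation release was used, whether strand was counted and how reads with several alignments were handled is not given in the sources used here, so counts of genes that overlap others are uncertain.

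Groups came from the sample labels, and CTCFL-OE, CTCFL-KD and Control were compared in 3 contrasts. Genes were kept by filterByExpr, scaled by TMM and tested with edgeR 4.0.16 in R 4.3.3 by its quasi-likelihood test (glmQLFit with robust estimation, all 9 libraries, condition only), with Benjamini-Hochberg adjustment over all 17794 genes tested. A gene passed at an adjusted p under 0.1 in CTCFL-OE vs Control and under 0.05 in CTCFL-KD vs Control, the cut-offs of the methods, and under 0.05 in CTCFL-KD vs CTCFL-OE, chosen here. The methods also ask for a fold change over 2, which was applied only where stated. Every adjusted p in the text is from this test unless another is named, and values after ± are standard errors. DESeq2 1.42.0, other scalings and filters, a replicate block, removal of length and GC trends and each library left out were the alternatives. Symbols, positions and canonical transcript lengths came from GENCODE 44 on GRCh38, promoters from RefSeq. The members and lists were chosen with earlier results of these data known. Values by library are given for members that passed in any comparison and for *BRCA1*, *BRCA2*, *PALB2*, *FANCD2*, *FANCI*, *ATM*, *ATR*, *CHEK1* and *CHEK2*, with *RAD51C*, *FANCG* and *TP53BP1* added after their values were seen, and from each other list at most the 3 passing genes with the largest fold change are named.

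Library totals of 14332622 to 24490080 counts let a count of 0 hide up to 3 counts, for counting error only. The main fit did not pair libraries, and by the methods the CTCFL-KD RNA came from earlier knockdown experiments. Pairing by replicate number entered only the alternatives with the block. Deviations from the group means in Control and CTCFL-KD correlated across 13537 genes by 0.322, 0.184 and 0.219 for replicates 1 to 3. With the trends over length and GC taken out, they correlated by 0.13, 0.141 and 0.0998, the third below the limit of 0.1 for pairing. These correlations do not establish that the libraries were paired. Between Control and CTCFL-OE the correlations were -0.0353, 0.219 and -0.0517 before the trends were taken out, which gave no ground for pairing these groups. The block was still fitted over all 9 libraries, so in those alternatives it also tied CTCFL-OE libraries to the others by number. No column of the matrix was without a sample.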

Additional observations from a re-analysis of the deposited data

How the results depend on the processing

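Single genes were followed for all 34 members in CTCFL-KD vs Control, for 23 in CTCFL-OE and for 19 in CTCFL-KD vs CTCFL-OE, the others in the counts only. Of 1596 such values under 21 alternatives, 1453 kept their direction and their side of the threshold, 40 lost a call, 55 gained one and 48 changed sign, none of which passed in either analysis. With Control and CTCFL-OE alone, DESeq2 called 2 members higher and 5 lower in CTCFL-OE and edgeR 2 and 4. With both treatments alone, DESeq2 called 0 higher and 2 lower (5.88%) in CTCFL-KD vs CTCFL-OE, beside 9.93% and 6.66% of all genes, and edgeR 0 and 1. With length and GC trends removed, 1 member was lower in CTCFL-OE (2.94%, beside 4.29% of all genes), 2 were higher in CTCFL-KD vs Control (5.88%, beside 24.2%), and 5 were higher (14.7%) and 7 lower (20.6%) in CTCFL-KD vs CTCFL-OE, beside 19.6% and 16.9% of all genes. With those trends removed together with the replicate block, 2 were higher and 8 lower in CTCFL-KD vs Control, beside 24.2% and 20.7% of all genes, and 5 and 6 in CTCFL-KD vs CTCFL-OE, beside 19.8% and 16.8%. The replicate block alone gave 8 lower (23.5%) and 1 higher (2.94%) in CTCFL-KD vs Control, beside 16.4% and 20.5% of all genes, with *ATR* added, and changed no other call. The causes were not tested.

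With 1 library left out, CTCFL-OE had 0 to 3 members higher, 0 to 9 lower and a median log2 fold change of -0.18 to -0.061. CTCFL-KD vs Control had 0 to 2 higher and 4 to 8 lower, and CTCFL-KD vs CTCFL-OE 2 to 5 higher and 2 to 6 lower. The shares of all genes ran from 0.0927 to 14% higher and 0.142 to 13.4% lower in CTCFL-OE, from 15 to 26.2% and 10.8 to 23.7% in CTCFL-KD vs Control, and from 9.96 to 21% and 7.38 to 18.7% in CTCFL-KD vs CTCFL-OE. An arm left with 2 libraries still shares the spread of all groups. The CTCFL-OE threshold of 0.05 also gave 0 members in either direction.

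Signs of values that had not passed changed as follows, with length and GC trends removed and then with the replicate block added. In CTCFL-OE they became 0.012 and 0.022 for *RAD51B*, 0.12 and 0.13 for *RAD51AP1*, and 0.019 and 0.016 for *ATR*. In CTCFL-KD vs Control they became 0.12 and 0.12 for *BRIP1* (from -0.19), -0.17 and -0.18 for *XRCC3*, 0.033 and 0.037 for *RAD54B* (from -0.36), 0.063 and 0.061 for *MRE11* (from -0.31), -0.025 and -0.030 for *FANCE*, 0.14 and 0.14 for *FANCL*, 0.24 and 0.24 for *FANCM*, 0.031 and 0.029 for *FANCD2*, and 0.056 and 0.040 for *ATM*. In CTCFL-KD vs CTCFL-OE *BLM* became 0.056 and 0.058. Without the low-count filter *RAD50* in CTCFL-KD vs Control was -0.0081 and *BRCA2* in CTCFL-KD vs CTCFL-OE -0.0053, and by DESeq2 on the 2 groups *RAD50* was -0.001.

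Leaving out 1 library, log2 fold changes that crossed 0 among the genes followed singly ran in CTCFL-OE from -0.28 to 0.11 for *RAD51B*, from -0.30 to 0.038 for *RAD51AP1* and from -0.017 to 0.13 for *CHEK2*. In CTCFL-KD vs Control they ran from -0.33 to 0.060 for *BRIP1*, -0.082 to 0.57 for *RAD51C*, -0.037 to 0.24 for *XRCC3*, -0.14 to 0.29 for *RAD50*, -0.26 to 0.10 for *FANCM*, -0.28 to 0.061 for *FANCD2* and -0.28 to 0.31 for *ATM*. In CTCFL-KD vs CTCFL-OE they ran from -0.11 to 0.30 for *BRCA2*, -0.39 to 0.20 for *ATM* and -0.019 to 0.35 for *CHEK2*. Depth limits *RAD50* and *RAD51B* most, with 634 and 652 counts over the 9 libraries.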

Other observations

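Several members share their promoter region with a gene read in the other direction, and 8 members had such a neighbour that was tested and started within 1 kb. In CTCFL-KD vs Control 2 of these 8 neighbours were lower at an adjusted p under 0.05 by edgeR, and 0 were higher, beside 16.8% and 21.4% of all genes. *C12orf4*, which starts 421 bases from *RAD51AP1*, stood at 35.9 ± 1.99 CPM (SD, n = 3) in Control and 14.5 ± 1.20 CPM in CTCFL-KD, with a log2 fold change of -1.30, so both genes of this pair were lower. *DCTN5*, a dynactin subunit that starts 156 bases from *PALB2*, stood at 66.6 ± 3.52 CPM in Control and 46.9 ± 1.76 CPM in CTCFL-KD, with a log2 fold change of -0.50, while *PALB2* itself did not pass. *NBR2*, a long noncoding RNA that starts 187 bases from *BRCA1*, stood at 4.82 ± 0.211 CPM in Control and 6.11 ± 0.643 CPM in CTCFL-KD, with a log2 fold change of 0.34 that did not pass, while *BRCA1* was lower. *NPAT*, 429 bases from *ATM*, had a log2 fold change of -0.55 (adjusted p = 0.0925 by edgeR). None of the 8 neighbours passed in CTCFL-OE, beside 1.99% of all genes higher and 1.16% lower.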
